A study of Anguilla anguilla with 3 samples.

Results

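The genes described here belong to the bone morphogenetic protein (BMP), activin and transforming growth factor beta (TGF-beta) pathways, in ovaries of 3 European eels (Anguilla anguilla). They are the predicted genes whose description names a BMP, a growth differentiation factor (GDF), an inhibin or activin, a follistatin, a noggin, a TGF-beta or a SMAD protein ("mothers against decapentaplegic"), without gdf9 and bmp15. That text rule found 135 of 45974 predicted genes, which carry 50 protein names. The 3 groups are a yellow eel (the resident growth stage), a silver eel that was prepubertal (silvering prepares eels for migration to the sea), and a matured eel taken post-spawning. Each group is 1 animal, and its library was made from pooled anterior, middle and posterior pieces of the gonad. The yellow and matured eels came from Lake Veerse in the same spring, and the silver eel came from Lake Grevelingen in a December of an earlier year, so in comparisons with the silver eel stage, lake, season and individual cannot be told apart. In matured versus yellow, stage and individual cannot be told apart. The labels name no age or treatment, and how the matured eel reached maturity is not stated in them.

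Ligands of this family are secreted dimers that bring together a type II and a type I receptor kinase at the cell surface. The type I receptor then phosphorylates receptor SMADs, SMAD1, SMAD5 and SMAD9 in the BMP branch and SMAD2 and SMAD3 in the activin and TGF-beta branch, which enter the nucleus with the shared partner SMAD4. Noggin and follistatin bind ligands outside the cell, and the inhibitory SMADs act inside it. In the vertebrate ovary these signals pass between the oocyte, the follicle cells around it and the stroma, and inhibin from follicle cells restrains the release of follicle-stimulating hormone in mammals.

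Names are those of the most similar protein in another species, given by the authors' similarity search, and 35 of the 50 names are shared by several rows. Such rows can be separate gene copies or pieces of 1 gene, and 35 of the 135 rows have a predicted transcript under 300 bases. Library totals lay between 27811764 and 41426808 reads. Values are in CPM, read counts scaled to a common library size, and 3 values in a row are those of the yellow, the silver and the matured library in that order. A row was counted as measured when it averaged at least 1 CPM over the 3 libraries, which 65 members did (48.1%), against 24571 of all genes (53.4%). The measured member with the lowest mean was the bmp1 row g9669 at 1.25 CPM, and the unmeasured one with the highest was the acvr1 row g40457 at 0.965 CPM. All 27 rows of the oocyte marker list, among them egg coat genes, had reads in every library, with a summed level of 58243, 46966.5 and 39146.5 CPM. There is no replicate of any stage, so the differences are between these libraries and no test was made. Intervals are 95% intervals for counting error only.

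The measured members were most often highest in the matured library. Of the 65, 33 (50.8%) had their highest level there, 15 in the silver and 17 in the yellow library, while 32.03% of all measured genes were highest in the matured library. In matured versus silver, the measured rows at least 4-fold apart were nogg2 (g22318), a noggin, which binds BMP ligands, with tgfb1 (g13421), inha (g40143), ltbp3 (g9675), bmp7 (g4370) and a tgbr3 row (g8935), all higher in the matured library. In the silver library bmp2 (g1844), a BMP ligand, stood above both other libraries. In matured versus yellow, these nogg2, tgfb1, inha and tgbr3 rows and fstl1 (g17011) were at least 4-fold higher, and a SMAD3 fragment (g43866) was at least 4-fold lower. The ltbp3 and bmp7 rows did not reach 4-fold in that comparison.

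Each log2 ratio compares levels to which 1 CPM was added, and a row was counted as 4-fold apart when that ratio reached 2 in either direction. In silver versus yellow, 1 of 65 measured members was at least 4-fold higher, against 2.33% of all measured genes, and 0 were 4-fold lower, against 0.96%. In matured versus silver, 6 members were 4-fold higher (9.23%), against 1.7% of all genes, and 0 were 4-fold lower, against 2.75%. In matured versus yellow, 5 members were 4-fold higher, against 2.73% of all genes, and 1 was 4-fold lower, against 1.67%. At 2-fold, 16 members were higher and 5 lower in matured versus silver (24.6% and 7.69%, against 10.3% and 14.8% of all genes), and 7 were higher and 6 lower in silver versus yellow (10.8% and 9.23%, against 13.7% and 9.19%). The median log2 ratio of the measured members was 0.45 in matured versus silver, where that of all genes was -0.03, and 0.03 in silver versus yellow, where that of all genes was 0.01. In matured versus silver the median of the members was lower at higher levels. Among the 26 members that reached 10 CPM in the higher library the median was 0.095, where that of all such genes was -0.21. Of these 26 members 3 were 4-fold higher. When 5 CPM was added in place of 1, 1 of the 65 was 4-fold higher. On the authors' RPKM, where 1 RPKM was added in place of 1 CPM, 3 were 4-fold higher. The shares of all genes at these 3 settings are not given here, so these counts describe the members alone. These comparisons share libraries and are not separate evidence.

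**Figure D1:**
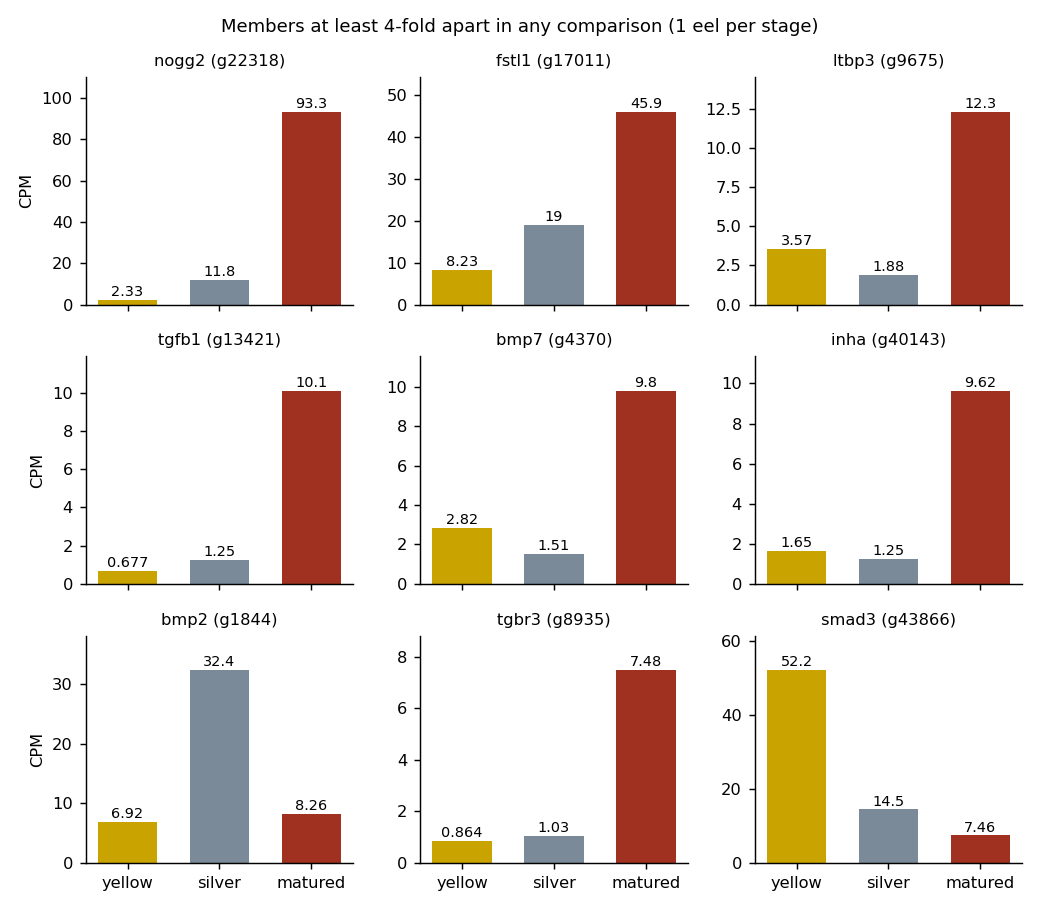
CPM in the yellow, silver and matured library (1 bar each, 1 eel per stage, no error can be drawn) of the 9 members that were at least 4-fold apart in any comparison by the ratio after adding 1 CPM. In 7 of the panels the matured library is highest, bmp2 is highest in the silver library and the smad3 row in the yellow library.

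Several marker lists of other cells of the ovary differed in the same direction as the 6 members that were higher in the matured library. The leukocyte list summed to 15.3, 50.5 and 199.9 CPM over 31 rows, and 14 of its 16 measured rows were above 0 in matured versus silver. The fibroblast and collagen list summed to 66.5, 93.2 and 975 CPM over 21 rows, with 15 of 16 measured rows above 0. The granulosa and theca list, without inha, summed to 19.9, 93.6 and 508 CPM over 12 rows, with 6 of 7 above 0. Rows of cp17a, a steroid-making enzyme, led that sum in the silver and matured libraries, with 2.78, 31.1 and 302 CPM in g22995. In the yellow library the largest row was cp11a (g4682), at 8.95 CPM. The most abundant foxl2 row (g429) was highest in the matured library, with 3.65, 11.1 and 25.1 CPM. The foxl2 row g7156 was highest in the silver library, with 0.489, 2.47 and 0.983 CPM. The cp19a rows were highest there too, at 0.526, 0.928 and 0.751 CPM in g9348 and 0.15, 1.43 and 0.954 CPM in g9349. The smooth muscle list summed to 231, 154 and 376 CPM over 23 rows, with 12 of 13 above 0. The endothelium list (36.3, 26.6 and 27.9 CPM, 15 rows) and the erythrocyte list (90.2, 58.8 and 97.8 CPM, 6 rows) varied less in sum. Their rows were not alike. In the endothelium list cadh5 (g17569) had 21.1, 18.8 and 4.02 CPM and tie2 (g1122) had 0.338, 0.981 and 8.64 CPM. In the erythrocyte list a row named 41 (g17113) held much of the sum, with 67.3, 32.8 and 55.2 CPM. The hemoglobin row hbba (g30174) had 2.52, 10.1 and 7.05 CPM. The epithelium list summed to 749, 980 and 933 CPM over 22 rows. A cadh1 row (g3555) held much of that sum, with 467, 823 and 304 CPM, and 10 of the 13 measured epithelium rows were above 0 in matured versus silver (median 1.35), 4 of them at least 4-fold higher. Rows with no reads numbered 6, 4 and 4 in the leukocyte list, 2 of which had none in any library, and 4, 3 and 2 in the smooth muscle list. Whether more cells of such types, or more RNA in each, lay behind any value in whole tissue cannot be told apart, and their part in the differences below was not tested.

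Among the 4 measured rows of BMP and GDF ligands, one of bmp2 and one of bmp7 were 4-fold apart, and they were highest in different libraries. The longest bmp2 row (g1844) had 6.92, 32.4 and 8.26 CPM, so that the silver library stood above the others. It was 4.68-fold higher in the silver than the yellow library (95% interval 4.01 to 5.50) and 3.92-fold lower in the matured than the silver library (3.44 to 4.47). The second measured bmp2 row (g816) did not share that peak, at 1.95, 1.83 and 1.42 CPM. The longest bmp7 row (g4370) had 2.82, 1.51 and 9.80 CPM and was 6.48-fold higher in the matured than the silver library (4.88 to 8.74). BMP7, in mammals a product of theca and stroma cells, was higher in the matured library in a shorter row too, g1442, with 8, 4 and 38 reads, while g9999 had 23, 22 and 16 reads. gdf11 (g19416), a growth differentiation factor close to myostatin, had 5.60, 2.62 and 3.29 CPM. The other 20 of the 24 ligand rows averaged under 1 CPM. Of these, bmp4, a close relative of bmp2, had 16, 53 and 33 reads over 2 rows, and gdf8, which is myostatin, had 8, 5 and 29 reads over 2 rows.

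The chains of activin and inhibin differed by chain. Activins are dimers of beta chains, and inhibins pair a beta chain with the alpha chain inha. The inha row g40143 had 1.65, 1.25 and 9.62 CPM and was 7.72-fold higher in the matured than the silver library (5.68 to 10.7). A second inha fragment (g41160, 127 bases) had 0.564, 0.477 and 2.75 CPM and was 5.75-fold higher (3.45 to 10.1), so both rows were highest in the matured library. The beta A chain inhba averaged under 1 CPM in each of its 4 rows, which together held 2, 20 and 81 reads. That sum was 4.41-fold higher in the matured than the silver library (2.68 to 7.60) and 7.05-fold higher in the silver than the yellow library, with a wide interval (1.71 to 62.2). The beta B chain inhbb (g13934) followed another course, with 1.503, 6.73 and 5.46 CPM. It was 4.48-fold higher in the silver than the yellow library (3.20 to 6.42), which is 1.63 on the log2 scale after adding 1 CPM and so under the 4-fold mark. The matured library lay 0.26 below the silver one on that scale. With library totals alone and with the authors' RPKM, all 3 measured chain rows were above 0 in matured versus silver. The side of inhbb in that comparison thus depended on the scaling. The summed level of the granulosa and theca list was also highest in the matured library, though single rows of it were not, as given above.

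Of the 3 measured TGF-beta ligand rows, that of tgfb1 was 4-fold apart. Its longest row (g13421) had 0.677, 1.25 and 10.1 CPM and was 8.09-fold higher in the matured than the silver library (5.96 to 11.2). The 3 short tgfb1 rows averaged under 1 CPM, and all 4 rows together held 22, 53 and 387 reads. tgfb2 (g2171) was the most abundant ligand row of the 3 names in each library, with 12.5, 20.7 and 16.4 CPM, or 4.37, 7.24 and 5.73 CPM per kilobase of transcript. tgfb3 (g20395) had 1.13, 1.67 and 2.02 CPM. The second row of each of these names averaged under 1 CPM and was highest in the matured library, with 7, 4 and 47 reads for tgfb2 (g20005) and 5, 14 and 52 reads for tgfb3 (g3317). Latent TGF-beta binding proteins can hold the latent form of the ligand in the matrix. Of their 10 rows 2 were measured, both named ltbp3. The row g9675 had 3.57, 1.88 and 12.3 CPM and was 6.55-fold higher in the matured than the silver library (5.09 to 8.55), and g19012 had 2.07, 0.821 and 2.34 CPM. Both tgfb1 and ltbp3 thus had their highest level in the library in which the fibroblast and collagen list summed to 975 CPM, against 93.2 CPM in the silver library, and the part of those cells was not tested.

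Among the measured members, the noggin row g22318 had the largest log2 ratio after adding 1 CPM, both in matured versus silver and in matured versus yellow. It had 2.33, 11.8 and 93.3 CPM, from 62, 445 and 3227 reads, so each later library stood above the earlier ones. It was 7.90-fold higher in the matured than the silver library (7.16 to 8.75), 5.06-fold higher in the silver than the yellow library (3.87 to 6.72) and 40.02-fold higher in the matured than the yellow library (31.1 to 52.3). Only 15 of the 24571 measured genes, this row included, reached its log2 ratio of 4.82 in matured versus yellow. Rows named nogg2 took 0.294%, 1.22% and 8.55% of all reads of the 135 members after scaling. The second nogg2 row (g15700) had 9, 23 and 6 reads and nogg3 had 2, 2 and 8 reads, both under 1 CPM on average.

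Follistatin binds activin, and its relatives have more varied roles. The secreted glycoprotein fstl1 (g17011) had 8.23, 19.01 and 45.9 CPM and was 2.41-fold higher in the matured than the silver library (2.21 to 2.64) and 5.57-fold higher in the matured than the yellow library (4.84 to 6.45). The 2 short fstl1 rows had the same order, g34378 with 0.752, 1.35 and 2.43 CPM and g39049 with 0.564, 1.30 and 2.17 CPM. Follistatin itself (fst, g33345, a fragment of 168 bases) had 2, 2 and 40 reads, and fstl3 (g23556, 287 bases), an activin-binding relative, had 2, 1 and 47 reads. With so few reads in the silver library the ratios of matured to silver were wide, 21.8 (5.65 to 186) for fst and 51.2 (8.76 to 2066) for fstl3, and neither row reached a mean of 1 CPM. In contrast, fstl5 (g27311) was lower in the matured library, with 5.22, 6.95 and 1.36 CPM, and was 5.11-fold lower in the matured than the silver library (3.74 to 7.13). The fstl4 row g19901 was 4.72-fold lower in the same comparison (2.64 to 9.06), with 1.503, 1.91 and 0.405 CPM. After adding 1 CPM both lay between 2-fold and 4-fold lower. The other rows of these names averaged under 1 CPM and were mixed. fstl4 g31449 was lowest in the matured library, with 24, 56 and 2 reads, whereas fstl4 g26153 had 5, 17 and 58 reads and fstl5 g21114 had 7, 8 and 51 reads. Summed over all rows, fstl4 held 93, 190 and 95 reads and fstl5 held 163, 306 and 158 reads. All 6 measured noggin and follistatin rows were above 0 in silver versus yellow and 4 of 6 in matured versus silver, counts that stayed the same with each other scaling tried.

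The protease bmp1, which cleaves procollagen and the antagonist chordin and is no ligand, was abundant and varied little in its longest row. That row (g7506, 4449 bases) had 65.2, 49.8 and 51.8 CPM. All 4 bmp1 rows were measured and were below 0 in silver versus yellow (median -0.44), 1 of them at least 2-fold lower. In matured versus silver 3 of the 4 were above 0. The row g9669 was 6.68-fold higher in the matured than the silver library (3.91 to 12.1) from a low level of 0.489, 0.424 and 2.83 CPM.

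**Figure D2:**
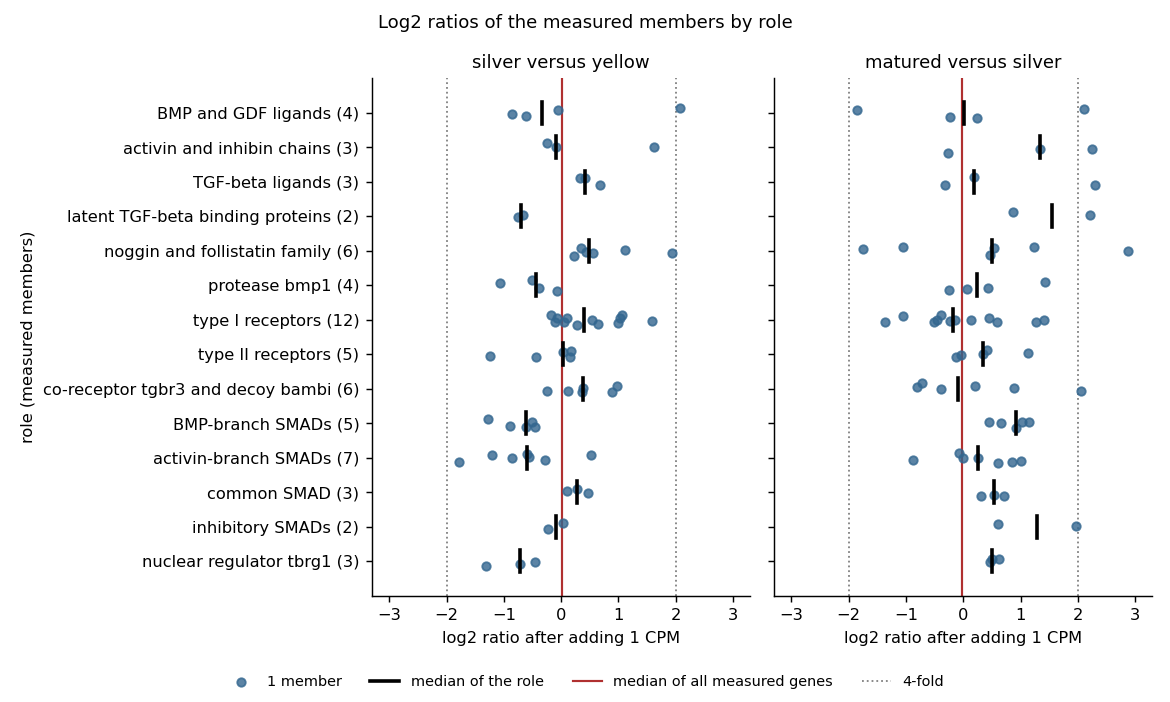
Log2 ratio after adding 1 CPM of each of the 65 measured members (1 point each), grouped by role, for silver versus yellow on the left and matured versus silver on the right. Black bars are medians of a role, the red line is the median of all 24571 measured genes and dotted lines mark 4-fold. The 5 BMP-branch SMAD rows lie left of 0 in silver versus yellow and right of 0 in matured versus silver.

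The type I receptors were measured in 12 of 14 rows, and the rows named acvr1 did not move together. acvr1, which in mammals passes on BMP signals, had the row g11303 with 10.3, 32.6 and 12.1 CPM. That row was 3.18-fold higher in the silver than the yellow library (2.79 to 3.64) and 2.70-fold lower in the matured than the silver library (2.42 to 3.03). The silver library was also highest for the row g11305 (3.68, 8.75 and 5.84 CPM), and g7121 was lowest in the yellow library (4.47, 9.84 and 8.26 CPM). Other acvr1 rows were highest in the matured library, g14908 with 9.40, 14.1 and 19.5 CPM and g11464 with 3.57, 3.26 and 9.28 CPM. The activin receptor acv1b (g11465) had 27.4, 56.6 and 50.9 CPM and was 2.07-fold higher in the silver than the yellow library (1.90 to 2.25). acv1c (g14909), a receptor for activin B and nodal in mammals, had 10.7, 17.3 and 12.97 CPM. Of the BMP receptors, bmr1a (g22847) had 32.7, 31.05 and 22.4 CPM, and its row g28271 had 15.8, 13.9 and 15.4 CPM. A bmr1a fragment (g45110, 242 bases) had 12.2, 12.6 and 5.61 CPM and was 2.26-fold lower in the matured than the silver library (1.91 to 2.68). bmr1b (g26663), in sheep the receptor whose Booroola mutation raises the number of eggs ovulated, had 3.08, 3.95 and 12.1 CPM and was 3.06-fold higher in the matured than the silver library (2.53 to 3.71). The median of the 12 rows was -0.19 in matured versus silver and turned to 0.13 with library totals alone, so no direction can be given for the receptors as a group there.

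Of 16 type II receptor rows 5 were measured, and 0 of them were 4-fold apart. With 1.7% of all measured genes 4-fold higher and 2.75% lower in matured versus silver, that count does not set apart so few rows. The avr2b row g9184 had 9.77, 9.97 and 9.62 CPM, and avr2a (g3128), an activin receptor, had 5.94, 6.79 and 9.39 CPM. A second avr2a row (g9142) was 3.21-fold lower in the silver than the yellow library (2.36 to 4.41), with 5.19, 1.62 and 2.34 CPM. The avr2b row g482 was 3.39-fold higher in the matured than the silver library (2.32 to 5.05), with 0.789, 0.981 and 3.32 CPM. All 6 rows of the BMP type II receptor bmpr2 averaged under 1 CPM and together held 34, 69 and 99 reads, with transcripts of 154 to 961 bases, so its level is not well covered by these rows.

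The decoy receptor bambi, which resembles a type I receptor without a kinase domain, took the largest share of the members' scaled reads in both the silver and matured eel. Its row g13418 had 150.1, 297 and 180.3 CPM and was 1.98-fold higher in the silver than the yellow library (1.91 to 2.05) and 1.65-fold lower in the matured than the silver library (1.60 to 1.70). The row g20663 had the same order in smaller steps, with 31.9, 41.6 and 31.5 CPM. Together the bambi rows took 20.1%, 33.4% and 19.4% of the scaled reads of all members. The co-receptor tgbr3, which presents TGF-beta and inhibin to their receptors, had rows that disagreed. The most abundant one (g21315) had 26.3, 22.2 and 25.8 CPM. The row g8935 had 0.864, 1.03 and 7.48 CPM and was 7.24-fold higher in the matured than the silver library (5.15 to 10.4), and g8576 had 0.263, 1.33 and 3.29 CPM. g2834 was highest in the silver library, with 1.54, 2.31 and 0.896 CPM.

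**Figure D3:**
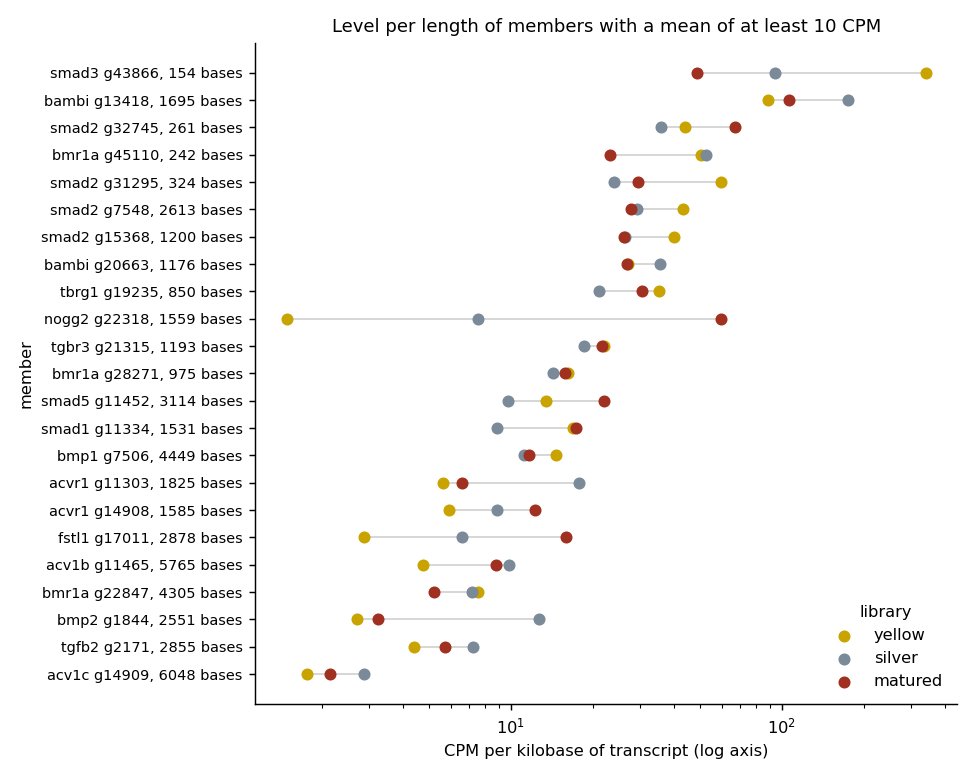
Level per length, as CPM per kilobase of predicted transcript on a log axis, of the 23 members with a mean of at least 10 CPM, with 1 point per library. The smad3 fragment and bambi (g13418) have the highest means, and nogg2 spans the widest range, with 1.49, 7.57 and 59.8 CPM per kilobase from the yellow to the matured eel.

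The BMP-branch SMADs were lowest in the silver library. smad5 (g11452) had 42.1, 30.4 and 68.7 CPM and was 2.26-fold higher in the matured than the silver library (2.10 to 2.43). smad1 (g11334) had 25.9, 13.5 and 26.6 CPM, and smad9 (g24837) had 4.59, 2.65 and 6.39 CPM. All 5 measured rows of the branch were below 0 in silver versus yellow (median -0.61) and above 0 in matured versus silver (median 0.92), and this held with each scaling tried. Both counts rest on the 1 silver library. Transcripts under 300 bases had a median of -0.26 in silver versus yellow over all 4431 measured genes of that length, against 0.08 for the 20140 longer ones, and 2 of the 5 rows are that short. The part of length was not tested.

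In CPM, which does not correct for transcript length, the activin branch was led by smad2. Its longest row (g7548) had 112.5, 76.2 and 72.2 CPM, and g15368 had 48.1, 31.6 and 31.3 CPM, so both were highest in the yellow library and close to each other in the silver and the matured library with this scaling. Per kilobase these rows lay near each other, at 43.1, 29.2 and 27.6 CPM for g7548 and 40.1, 26.3 and 26.1 CPM for g15368. The fragment g32745 had its highest value in the matured library instead, with 11.5, 9.31 and 17.6 CPM, and the fragment g31295 in the yellow library, with 19.3, 7.80 and 9.51 CPM. The smad3 rows could not be read as 1 gene. The fragment g43866 (154 bases) had 52.2, 14.5 and 7.46 CPM and was 6.998-fold lower in the matured than the yellow library (6.12 to 8.02), whereas the longest row (g10630, 2930 bases) had 1.28, 2.28 and 3.99 CPM and was 3.12-fold higher (2.13 to 4.69). Per kilobase the fragment stood at 339, 94.01 and 48.4 CPM against 0.436, 0.778 and 1.36 CPM for the long row. All reads of both aligned uniquely.

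smad4, the partner of both branches, was higher with each stage in all 3 measured rows, of which g14797 had 3.72, 4.08 and 6.36 CPM and g28173 had 2.52, 3.84 and 5.03 CPM. The unmeasured fragment g31646 had 21, 27 and 21 reads. The inhibitory SMADs, which feed back on the receptors, were highest in the matured library. smad7 (g1944) had 0.413, 0.212 and 3.73 CPM, from 11, 8 and 129 reads, and was 17.6-fold higher in the matured than the silver library (8.66 to 41.6), or 1.96 on the log2 scale after adding 1 CPM and so just under the 4-fold mark. smad6 held 60, 79 and 201 reads over 3 rows, a sum 2.77-fold higher in the matured than the silver library (2.13 to 3.64), and only g19038 of these was measured (1.84, 1.91 and 3.44 CPM). tbrg1, a nuclear growth regulator named for TGF-beta but no component of the pathway, was lowest in the silver library in its longest row (g19235), with 30.0, 17.9 and 25.9 CPM.

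The authors' deposited table holds p-values from DESeq, which took the variance from the 3 libraries in the absence of replicates. Of the 130 members with a value for matured versus yellow in the authors' deposited table, 1 had an adjusted p-value under 0.1, which was nogg2 (g22318) at an adjusted p-value of 0.0167, against 0.332% of all genes. In that comparison the authors' deposited table gave 6 members an unadjusted p-value under 0.05, against 4.36% of all genes. For matured versus silver the authors' deposited table had 0 members under 0.1, where the lowest adjusted p-value was 0.55, and 11 of 127 had an unadjusted p-value under 0.05, against 4.58% of all genes. For silver versus yellow the authors' deposited table had 0 of 128 members under either threshold, where 2.48% of all genes had an unadjusted p-value under 0.05.

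Other genes of these pathways, which the text rule does not catch, were taken from a list of phrases in 6 groups, and 71 of its 123 rows were measured. In silver versus yellow 1 was at least 4-fold higher and 0 lower, and in matured versus silver 3 were 4-fold higher and 2 lower (medians -0.04 and 0.14, against 0.01 and -0.03 for all genes). These are 1.41% higher in silver versus yellow, against 2.33% of all genes, and 4.23% higher and 2.82% lower in matured versus silver, against 1.7% and 2.75% of all genes. In matured versus yellow 4 were 4-fold higher (5.63%) and 1 lower (1.41%), against 2.73% and 1.67% of all genes. The known target genes held 4 of the 5 rows that were 4-fold apart in matured versus silver. All 9 measured target rows were above 0 in silver versus yellow (median 1.34), where 50.4% of all genes were above 0 (median 0.01). id1 (g20038), an inhibitor of helix-loop-helix factors and a classic target of BMP signals, had 117, 692 and 48.9 CPM. Its highest level was in the silver library, as was that of bmp2 g1844 but not of bmp2 g816. The bambi rows were also highest in that library, while bmp7 g4370 and all 5 measured BMP-branch SMAD rows were lowest there. A link between these genes was not tested. The id1 row g20038 was 5.93-fold higher in the silver than the yellow library (5.71 to 6.15) and 14.1-fold lower in the matured than the silver library (13.5 to 14.9). A second id1 row (g5955) had the same order, with 67.02, 125.6 and 15.4 CPM. The related id2 rows were not alike, with 4.40, 14.5 and 6.65 CPM in g7381, 2.22, 7.16 and 5.84 CPM in g26636, and 0.0752, 0.292 and 2.95 CPM in g18594. The row g18594 was 10.1-fold higher in the matured than the silver library (5.42 to 20.9). After adding 1 CPM that is 1.61 on the log2 scale and so under the 4-fold mark. In contrast pai1 (g11473), a plasminogen activator inhibitor and target of TGF-beta, had 0.677, 4.48 and 20.7 CPM. It was 4.61-fold higher in the matured than the silver library (3.89 to 5.49), or 1.98 on that scale and just under the mark. The matrix proteins cyr61 (g4725, 1.73, 3.39 and 23.5 CPM) and ctgf (g3764, 4.51, 7.80 and 47.7 CPM), whose genes answer to TGF-beta and to other signals, were highest in the matured library as well. A second ctgf row (g12096) was highest in the silver library, with 4.10, 14.5 and 5.72 CPM.

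The remaining groups of that list held 1 row that was 4-fold apart in matured versus silver, a tsp1 row. Of all measured genes 1.7% were 4-fold higher and 2.75% lower in that comparison, so a count of 0 does not set apart groups this small. Among secreted antagonists and carriers, tsp1 (g1692), a thrombospondin that can release latent TGF-beta, had 2.37, 2.94 and 31.6 CPM and was 10.7-fold higher in the matured than the silver library (8.83 to 13.2), and nbl1 (g18482), an antagonist of the DAN family, had 1.47, 3.05 and 5.87 CPM. A second tsp1 row (g1691) had 0.188, 0.477 and 3.61 CPM. Of the other receptors and co-receptors 0 of 14 were 4-fold apart. tgfr2 (g11535), the TGF-beta type II receptor, had 10.2, 25.1 and 14.2 CPM, and the BMP co-receptors rgmb (g4497) and rgma (g16063) had 14.7, 18.5 and 5.20 CPM and 1.39, 5.01 and 0.925 CPM. Of 27 regulators 0 were 4-fold apart, and foxh1 (g22150), a DNA-binding partner of SMAD2, had 63.3, 21.2 and 16.2 CPM. The kinase m3k7 (g15745), also called TAK1, had 6.88, 24.6 and 24.4 CPM, and its adaptor tab3 (g10031) had 5.41, 1.27 and 3.12 CPM. The m3k7 row g18443 had a like order, with 6.24, 15.7 and 14.5 CPM, but g537 was lowest in the matured library, with 11.1, 21.6 and 7.37 CPM. Among the proteases that cut ligand precursors, pcsk6 (g12353) was highest in the silver library, with 73.9, 159 and 75.9 CPM, and the other 11 of the 12 measured rows of that group were below 0 in silver versus yellow. Among those, pcsk5 had 100.02, 53.3 and 115 CPM in g7883 and 4.70, 3.87 and 10.3 CPM in g36469. Other measured pcsk5 rows were highest in the yellow library, g22815 with 40.0, 23.7 and 21.6 CPM and g25033 with 17.9, 10.8 and 14.3 CPM. So were g33591 and g45381, while g40157 had 10.2, 5.99 and 10.3 CPM. The anti-Muellerian hormone row mis (g25076), the 1 measured row among the other ligands, had 1.503, 2.31 and 2.92 CPM.

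**Figure D4:**
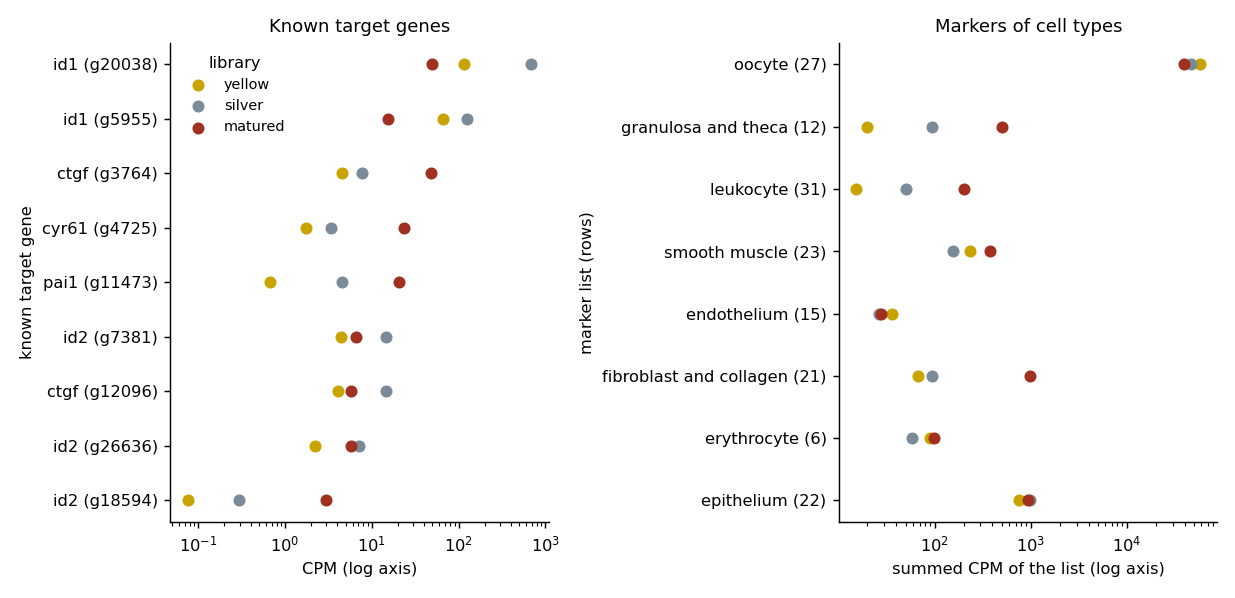
Left, CPM of the 9 measured rows of known target genes, and right, summed CPM of 8 cell type marker lists (number of rows in brackets), with 1 point per library on log axes. The id1 rows are lowest in the matured library, and the summed levels of the leukocyte, fibroblast and granulosa and theca lists are highest there.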

How the data were processed

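RNA was sequenced from the ovary of 3 eels, 1 per stage. Per the file headers, Augustus predicted the genes, Blast2GO gave their names, and CLC bio served to align and count the reads. HTSeq, DESeq, CASAVA, SAMtools 0.1.18 and TopHat2 2.0.5 are listed in the submitters' processing notes with no role, and a genome build was not given in the sources used here. The deposited counts include reads with multiple alignments, which the authors' software distributed, and uniquely aligned reads are deposited beside them. The RPKM values were computed by the authors per transcript length and library total. The log2 fold changes and p-values are the authors' from DESeq, with the variance taken from the 3 libraries.

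Counts were scaled with TMM (edgeR 4.0.16, R 4.3.3) to CPM. A fold is a ratio of scaled counts whose 95% interval is the exact (Clopper-Pearson) one conditional on both libraries' reads, and PCR reads are not independent molecules. No test was run, since each stage is 1 eel. The last line, which holds column totals, and 1 blank line were left out. The members, lists and rules were chosen with earlier results of these data known. Rows with a mean of at least 10 CPM or 4-fold apart were to be given in every library. Of the other pathway genes, up to 3 measured rows per group were to be given. Those were the rows with the largest absolute log2 ratio in any comparison. Further rows were named to describe each role after their values were seen. The phrases also matched 16 rows of unrelated proteins, which were dropped after they were seen, and inha was left out of its marker list because it is a member. Alternatives were DESeq2 1.42.0 size factors, library totals, unique reads, other filters, pseudocounts of 0.1 and 5 CPM, RPKM and a 2-fold mark. The steps were tested on simulated data. Intervals were computed with scipy 1.17.1 in Python 3.11.15. No sequences of the members were analysed here.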

Additional observations from a re-analysis of the deposited data

How the results depend on the processing

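Counts of members 4-fold apart stayed within 1.5 times with DESeq2 size factors, library totals and unique reads. Leaving out the filter on low values could not change them. A row with a mean under 1 CPM cannot reach 4-fold after adding 1 CPM. They were sensitive to the pseudocount. With 0.1 CPM, 3 members were higher in silver versus yellow, 1 was lower in matured versus silver and 9 were higher in matured versus yellow. With 5 CPM the higher counts were 0, 1 and 1 in silver versus yellow, matured versus silver and matured versus yellow. With the authors' RPKM, 0 were higher in silver versus yellow and 3 in matured versus silver. There 1 RPKM was added, which is not the same addition as 1 CPM and differs with transcript length. When the higher of the libraries compared had to reach 10 CPM, which leaves 26 members, 3 were higher in matured versus silver and 3 in matured versus yellow, and the median in matured versus silver was 0.095, against 0.45. Library totals alone moved that median to 0.68, while they moved the median of all genes to 0.26. At 2-fold the counts were 7 higher and 6 lower, 16 and 5, and 17 and 4 in the same order of comparisons. In matured versus yellow the 17 and 4 were 26.2% and 6.15%, against 12.3% and 12% of all genes. Shares of all genes with the other pseudocounts, RPKM and the 10 CPM limit are not given here. The counts at those settings therefore describe the members alone. The cause of the changes in counts and medians was not tested. Of 84 folds of named members, 8 changed side of 1 with library totals alone, 0 of them 4-fold apart. No paired analysis was possible because each stage has 1 eel. Rows of few reads limit what can be said of fst, fstl3, inhba and bmpr2.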
